A study of Mus musculus with 48 samples.

Results

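Bile acid synthesis, conjugation, transport and feedback control in mouse liver are described here through 10 genes. These are Cyp7a1, Cyp8b1, Cyp27a1, Cyp7b1, Slc27a5, Baat, Slc10a1, Abcb11, Nr1h4 and Nr0b2. They were taken by gene symbol from a count table of 30055 symbols. All 10 were found, and all 10 passed the filter on low counts in liver.

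Hepatocytes make bile acids from cholesterol by a classical pathway, opened by CYP7A1, and an alternative pathway, in which CYP27A1 and CYP7B1 act. The acids are coupled to taurine or glycine, pumped into bile by the bile salt export pump, and taken back up from portal blood by the sodium-dependent carrier NTCP. Bile acids bind the nuclear receptor FXR, which induces the repressor SHP and the export pump and lowers transcription of the synthesis genes.

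The RNA came from liver of C57BL6/J mice of both sexes. From 8 weeks of age they ate a diet rich in fat, which made up 45% of its calories (HFD), or regular rodent chow (RD), for 12 or 2 weeks. The 8 groups of 3 libraries were HFD females, HFD males, RD females and RD males at 12 weeks, and the same 4 at 2 weeks. The comparisons ask how diet acts in each sex, how the sexes differ on each diet, and how both depend on the time on the diet. The 12-week and 2-week animals formed separate cohorts, so time on the diet, age and cohort cannot be told apart. Libraries are named below by the number in their sample name. The labels do not say that each library is a separate mouse, so p-values measure the spread between libraries.

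Liver library totals ran from 50.9 to 80.1 M expected counts, with a median of 69.9 M. The 11 hepatocyte markers in the table, among them Alb, were above 0 in all 24 libraries and summed to 84700 to 145000 CPM, the count scaled to library size. Replicates of 3 groups differed most. The chi-square per degree of freedom between counts was 608 and 401 for HFD male 13 at 2 weeks against its replicates, 499 and 332 for HFD male 4 at 12 weeks, and 426 and 372 for HFD female 5 at 2 weeks. It was at most 264 between other replicates, and no replicates were identical. Calls of the 10 genes that were lost or gained without one of these 3 libraries are named below. Levels in bulk tissue cannot tell fewer cells of a type from less RNA per cell.

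Per kilobase of exon, the median level over the 24 libraries was highest for Slc27a5, at 285 CPM per kb, with Slc10a1 at 210 and Cyp27a1 at 181. Abcb11 at 131, Cyp8b1 at 127 and Baat at 105 CPM per kb formed the middle of the order. Nr1h4 at 46.4, Cyp7b1 at 33.1, Nr0b2 at 24.6 and Cyp7a1 at 23.6 CPM per kb were lowest by this median. Their order differed by group. Mean Cyp7b1 was 6.25 to 10.2 CPM per kb in the female groups, where Cyp7a1 had 15.3 to 25.8. In the male groups Cyp7b1 had 118 to 282 CPM per kb, so its median lay between the sexes. At 12 weeks mean Nr0b2 per kb was below Cyp7a1 in every group. The genes varied to very different degrees. The highest library held 60.5 times the CPM of the lowest for Cyp7b1, 42.2 times for Cyp7a1 and 11.6 times for Nr0b2. For Nr1h4 and Slc27a5 this ratio was 1.55. In the order of the 8 group means, 3 of the 7 neighbouring pairs of groups did not overlap for Cyp7b1, and 1 of 7 did not for each of Cyp7a1, Baat, Abcb11 and Nr1h4. For Cyp8b1, Cyp27a1, Slc10a1, Nr0b2 and Slc27a5 all 7 pairs of neighbours overlapped. These counts were not taken over all genes, so they do not set the members apart from other genes.

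**Figure D1:**
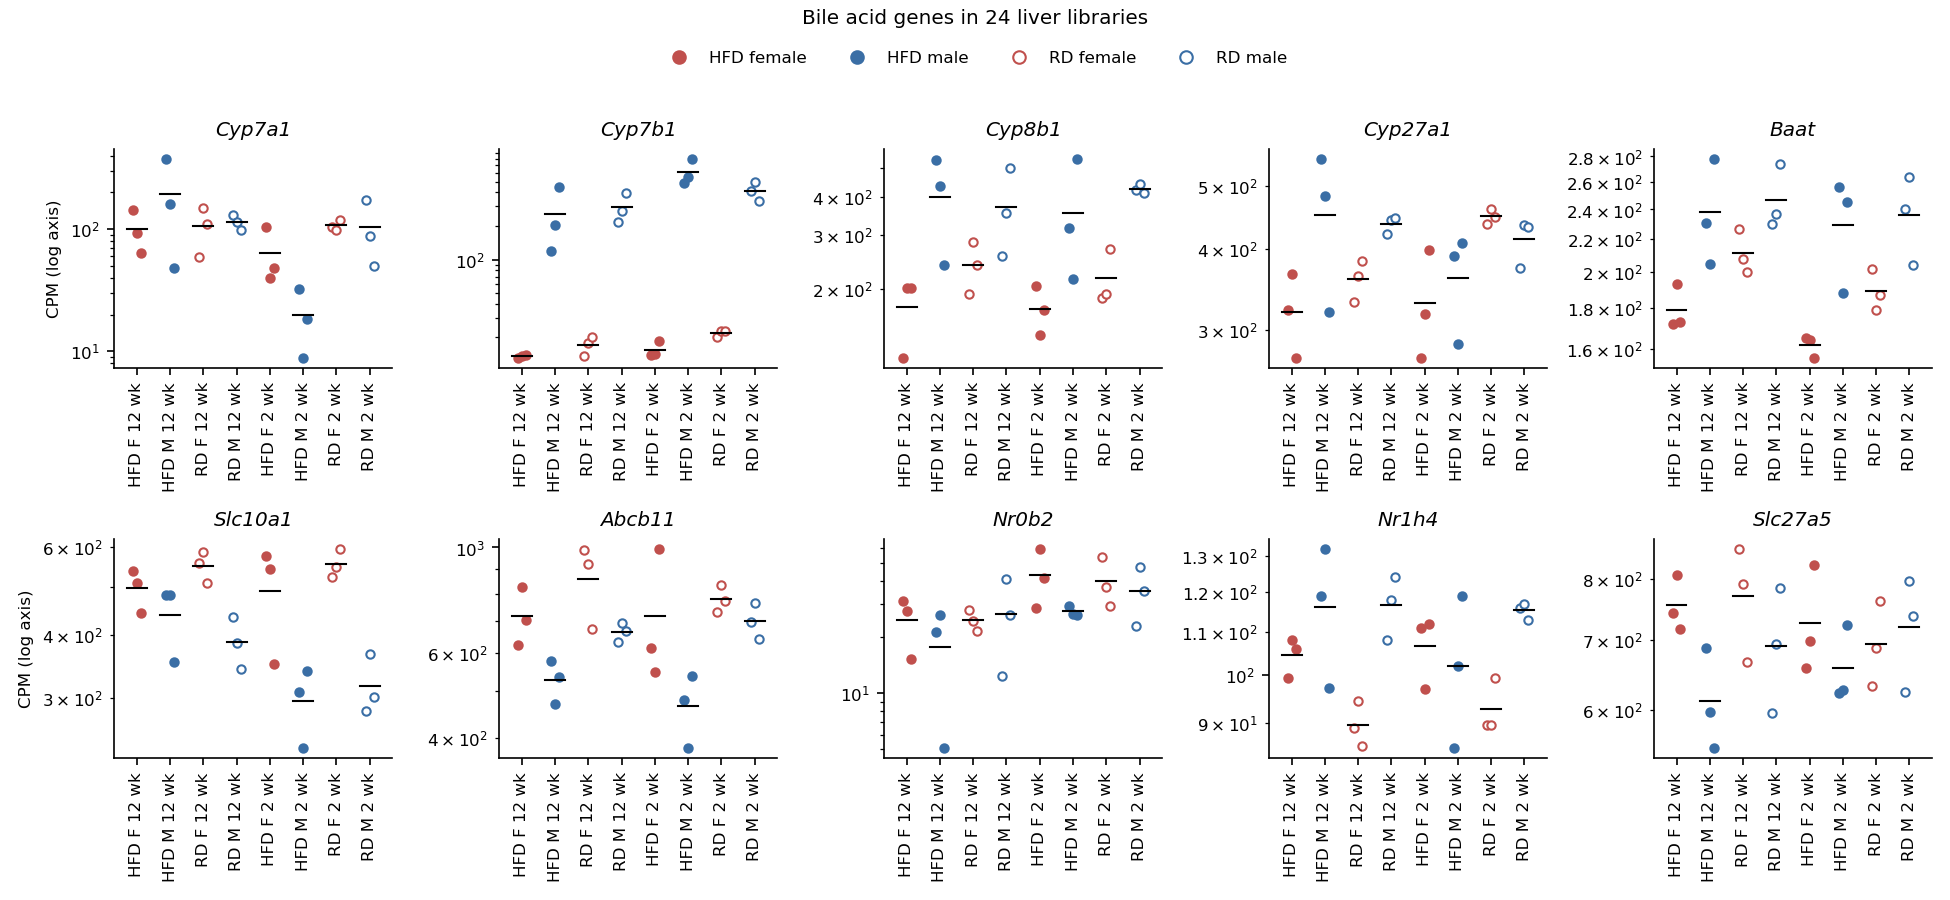
CPM (log axis) of the 10 genes in each of 24 liver libraries, by group, with the mean as a bar (n = 3). Red points are females and blue points males, filled on HFD and open on RD. Cyp7b1 lies between 13.2 and 23.1 CPM in females and between 120 and 798 CPM in males.

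With edgeR, sex gave calls among the 10 genes, and diet gave none. Averaged over the 4 combinations of diet and time, 6 of the 10 genes differed between females and males (edgeR's quasi-likelihood test, Benjamini-Hochberg adjusted p under 0.05 over 15897 genes, here "called"), where 39.2% of all tested genes were called. The transporters Slc10a1 and Abcb11 were higher in females, and Cyp7b1, Cyp8b1, Baat and Nr1h4 were lower in females. The median log2 fold change of the 10, female over male, was -0.02, against 0.04 over all genes. None of the 6 calls was lost when any 1 of the 24 libraries was left out. Within the 4 combinations the members called were 3 of 10 on HFD at 12 weeks (17.3% of all genes), 1 on RD at 12 weeks (8.81%), 5 on HFD at 2 weeks (12.4%) and 2 on RD at 2 weeks (9.81%). The average reuses the libraries of these 4 comparisons.

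Diet gave no call among the 10 genes in any of its 4 comparisons, nor in their mean, with edgeR. The share of all genes called was 0.00629% in females and 1.12% in males at 12 weeks, 0.252% in females and 0.34% in males at 2 weeks, and 1.34% for the mean. At an unadjusted p under 0.05 there were 0 members in females and 0 in males at 12 weeks (4.32% and 13.1% of all genes), 1 in females and 2 in males at 2 weeks (10% and 10.6%), and 3 for the mean (14.4%). DESeq2 called 1 member in males at 2 weeks (Cyp7a1, among 321 genes), 1 for the mean (Abcb11, among 634 genes) and 0 in the other 3 comparisons.

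**Figure D2:**
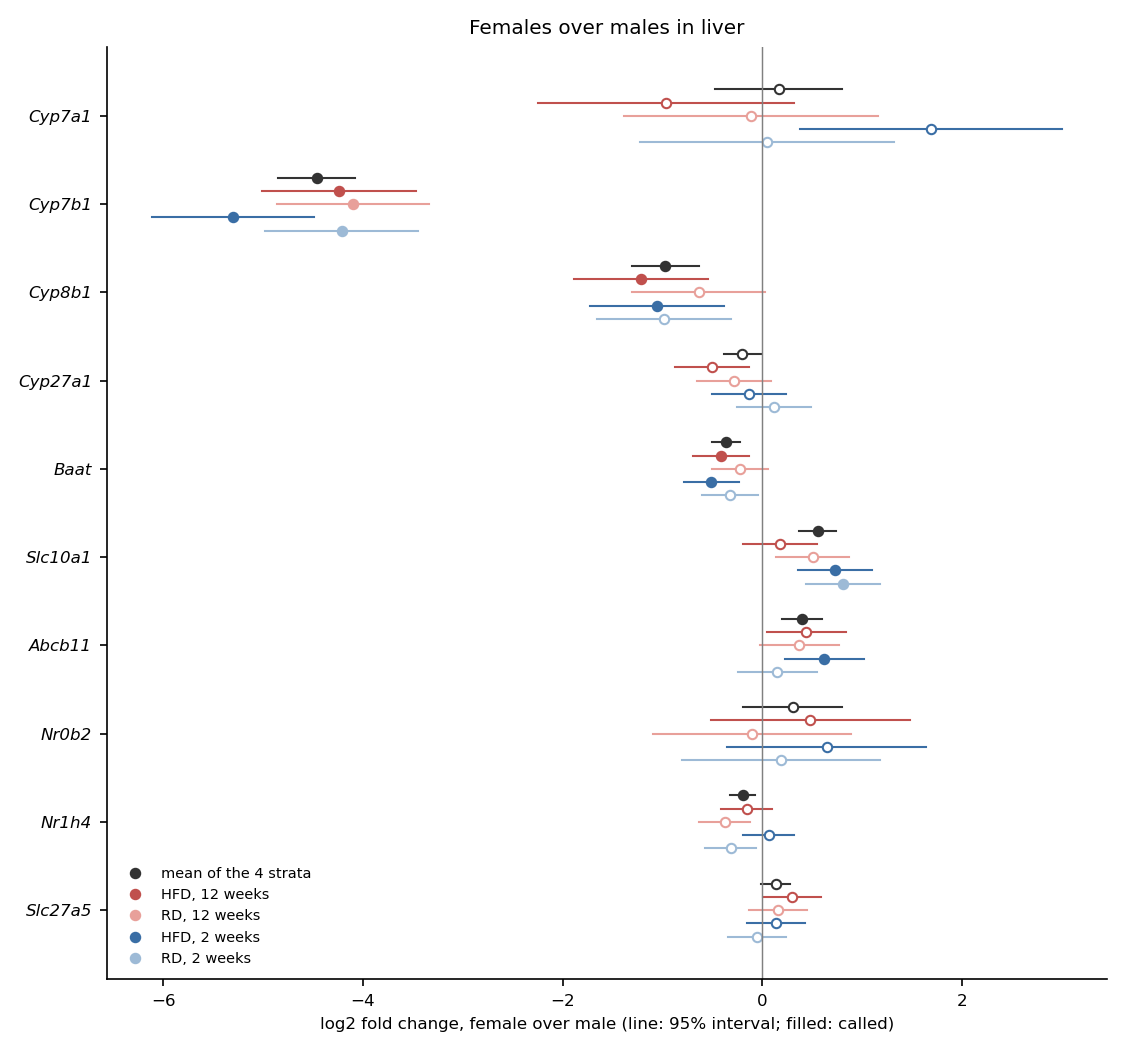
Log2 fold change, female over male, of each gene (x axis) for the mean of the 4 combinations and for each diet and time. Lines are 95% intervals, filled points are called (adjusted p under 0.05), n = 3 libraries a group. Cyp7b1 lies at -4.46 for the mean, and the other 9 genes lie between -0.97 and 0.56.

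Cyp7a1 (chr4:6265612-6275633, minus strand, all positions GRCm38) encodes the rate-limiting enzyme of the classical pathway. At 12 weeks it stood at 143, 92.7 and 64.4 CPM in HFD females and 376, 161 and 48.5 CPM in HFD males, against 59.8, 148 and 110 CPM in RD females and 131, 114 and 98.7 CPM in RD males. At 2 weeks it stood at 104, 40.1 and 47.8 CPM in HFD females and 32.2, 8.9 and 18.4 CPM in HFD males, against 105, 98.3 and 120 CPM in RD females and 175, 88.4 and 49.6 CPM in RD males. The 3 HFD males at 2 weeks were the lowest of the 24 libraries, and they did not overlap with the RD males of that time. In the other 3 diet comparisons the groups overlapped.

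The HFD over RD difference of Cyp7a1 in males at 2 weeks was -2.40 on the log2 scale (SE 0.64, 95% interval -3.74 to -1.06), which is 5.26-fold lower on HFD. Its unadjusted p was 0.0014 and its adjusted p 0.12 with edgeR's quasi-likelihood test, so it was not called, while DESeq2 gave an adjusted p of 0.0095. Across all alternatives the adjusted p ran from 0.0095 to 0.41. Without HFD male 13 the difference was -2.04, with an adjusted p of 0.41. The 3 other diet differences were 0.77 (95% interval -0.51 to 2.05) in males at 12 weeks, -0.08 (-1.35 to 1.19) in females at 12 weeks and -0.75 (-2.03 to 0.52) in females at 2 weeks.

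Among HFD males Cyp7a1 was called between the 2 times. It was higher at 12 weeks by 3.30 on the log2 scale (SE 0.66, adjusted p = 0.0023), a 9.84-fold difference, and the 12-week libraries (376, 161 and 48.5 CPM) all lay above the 2-week ones (32.2, 8.9 and 18.4 CPM). Without male 2, at 376 CPM, it was 2.35 (adjusted p = 0.015), without male 13 it was 2.95 (adjusted p = 0.018), and without male 4 it was 3.73 (adjusted p = 0.00054). In a fit of these 2 groups alone the adjusted p was 0.076. RD males differed by 0.13 (95% interval -1.14 to 1.41), HFD females by 0.65 (-0.63 to 1.92) and RD females by -0.03 (-1.30 to 1.24) between the times, all uncalled. The difference between the diet effects at 12 and 2 weeks in males was 3.16 (95% interval 1.32 to 5.01) with an adjusted p of 0.13. It was called by DESeq2 (adjusted p = 0.019), and by edgeR without HFD male 4 of 12 weeks (3.61, adjusted p = 0.044). The HFD males of 2 weeks enter the time comparison of HFD males, the diet comparison of males at 2 weeks and the difference between the male diet effects.

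HFD males at 12 over 2 weeks had 3 of the 10 members called, where 17.1% of all genes were called. Besides Cyp7a1, Slc10a1 was higher and Cyp7b1 lower at 12 weeks. No member was called between the times in RD females (0.0% of all genes), HFD females (0.0189%) or RD males (0.233%), nor in the difference between the diet effects at 12 and 2 weeks in females (0.0%) or males (0.352%). At an unadjusted p under 0.05 there were 0 members in RD females (5.49% of all genes), HFD females (9.4%) and RD males (11.5%). For the difference between the diet effects there were 0 in females (3.42%) and 1 in males (Cyp7a1, 11%). DESeq2 called that one alone in these 5 comparisons.

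Other genes moved with these male libraries. Of 20 tested acute phase genes, which encode plasma proteins and mediators of inflammation, 14 were lower and 0 higher in HFD males at 12 over 2 weeks. Their summed level was 18500, 23100 and 46300 CPM in HFD males 2, 3 and 4 at 12 weeks, and 44000, 124000 and 57300 CPM in HFD males 12, 13 and 14 at 2 weeks. Male 13 thus stood far above its replicates, and none of the genes was at 0 in all libraries. In HFD over RD males at 2 weeks 2 of the 20 were called, both higher (0.34% of all genes called). At an unadjusted p under 0.05 there were 17 of the 20 (10.6% of all genes), with a median log2 fold change of 1.31 over the list. The summed level of the acute phase genes in RD males of that time was 32400 to 40800 CPM. In HFD males at 12 over 2 weeks 17.1% of all genes were called. There 13 of 14 macrophage markers, all above 0 in every library, were lower at 12 weeks (223 to 377 CPM at 12 weeks, 727 to 1310 CPM at 2 weeks). So were 8 of 10 endothelial markers (149 to 221 CPM at 12 weeks, 349 to 399 CPM at 2 weeks) and 4 of 11 stellate cell markers (175 to 291 CPM at 12 weeks, 284 to 403 CPM at 2 weeks). Of 10 lymphoid markers 5 were lower and 1 higher (15.3 to 22.8 CPM at 12 weeks, 21.3 to 34.5 CPM at 2 weeks). Of 18 circadian clock genes 6 were higher and 4 lower at 12 over 2 weeks (596 to 1130 CPM at 12 weeks, 780 to 911 CPM at 2 weeks). Clock genes also moved in RD males between the times, with 1 higher and 0 lower (0.233% of all genes called). At an unadjusted p under 0.05 there were 14 of the 18 in RD males (11.5% of all genes) and 14 in HFD males (30.7%). Their median log2 fold change was 0.83 in RD males and 0.61 in HFD males. HFD male 4 had the highest acute phase sum, the lowest clock sum and the lowest Cyp7a1 of its group. The part of these genes in the differences was not tested, and the sources used here do not give the hour of tissue collection.

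**Figure D3:**
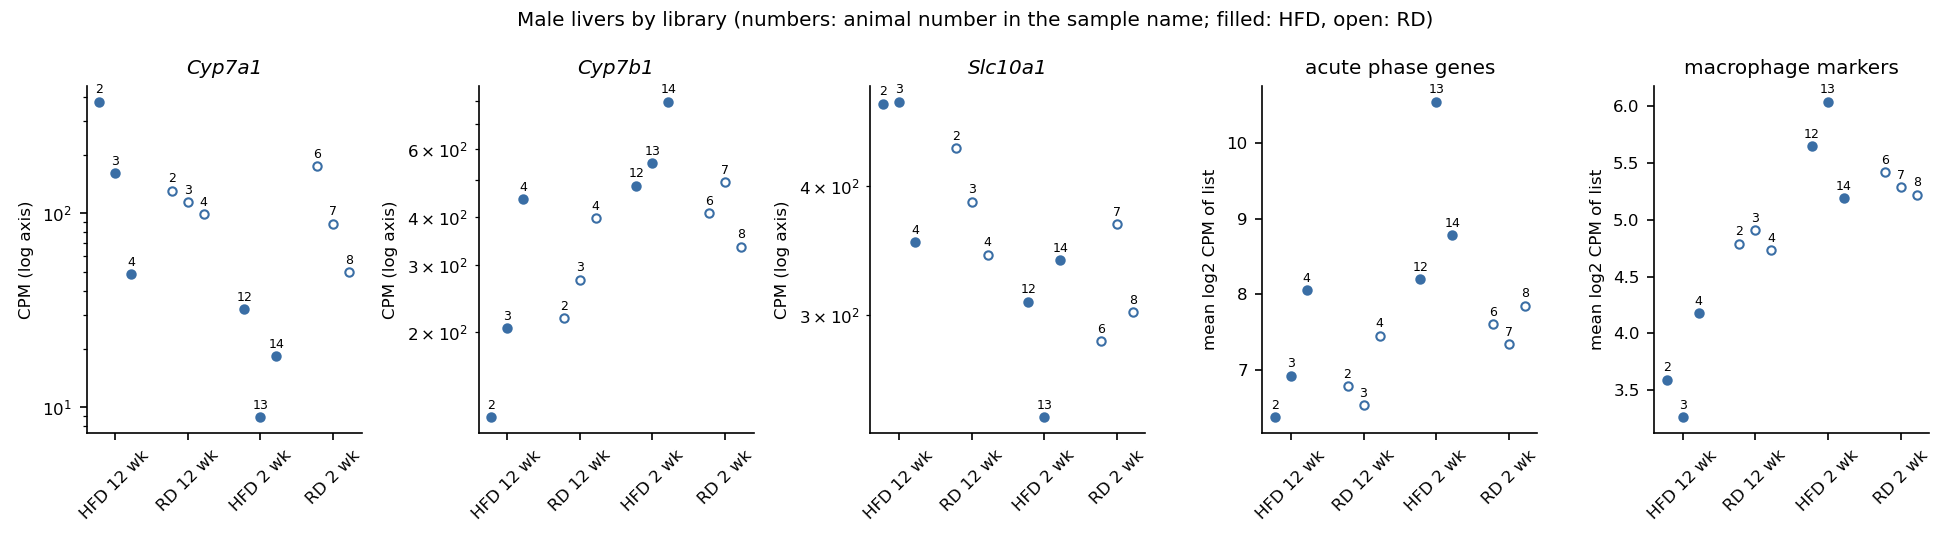
Cyp7a1, Cyp7b1 and Slc10a1 (CPM, log axis) and the mean log2 CPM of acute phase genes and of macrophage markers in each of 12 male liver libraries, labelled with the number in the sample name. HFD male 13 at 2 weeks has the highest acute phase mean (10.55) and the lowest Cyp7a1 (8.9 CPM).

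Females and males did not differ in Cyp7a1 by a called amount. The mean difference, female over male, was 0.17 (95% interval -0.47 to 0.80). On HFD at 2 weeks it was 1.69 (0.38 to 3.00, adjusted p = 0.085), with 104, 40.1 and 47.8 CPM in females and 32.2, 8.9 and 18.4 CPM in males, and DESeq2 called it (adjusted p = 0.038). On HFD at 12 weeks it was -0.96 (-2.25 to 0.32). The sex by diet interactions of Cyp7a1 were -0.85 (-2.65 to 0.95) at 12 weeks and 1.64 (-0.17 to 3.45) at 2 weeks.

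Cyp8b1 (chr9:121914356-121916305, minus strand) encodes the sterol hydroxylase that directs synthesis to cholic acid. Females ran from 119 to 285 CPM with a median of 196, and males from 215 to 535 CPM with a median of 419 (12 libraries each). The ranges met only between 215 and 285 CPM, where HFD male 13 at 2 weeks (215), HFD male 4 (240) and RD male 2 at 12 weeks (256) lay. The mean difference was -0.97 on the log2 scale (SE 0.16, adjusted p = 9e-05), so the level was 1.96-fold lower in females.

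Within each diet and time Cyp8b1 was lower in females by -1.21 on HFD at 12 weeks (adjusted p = 0.014) and by -1.05 on HFD at 2 weeks (adjusted p = 0.037). On RD it was -0.63 at 12 weeks (95% interval -1.30 to 0.03) and -0.98 at 2 weeks (adjusted p = 0.057), both uncalled. The RD difference at 2 weeks was called by DESeq2 (adjusted p = 0.017) and by edgeR on the 2 groups alone (adjusted p = 0.0034). The sex by diet interactions were -0.57 (95% interval -1.51 to 0.36) at 12 weeks and -0.07 (adjusted p = 0.98) at 2 weeks, so a different sex gap on the 2 diets was not shown. The call on HFD at 12 weeks was lost without female 3 (adjusted p = 0.071) or male 2 (-0.93, adjusted p = 0.061). The call on HFD at 2 weeks was lost without female 2 (adjusted p = 0.12), female 5 (0.082), male 12 (0.054) or male 14 (-0.63, adjusted p = 0.25). The diet differences of Cyp8b1 ran from -0.46 to 0.12, none called.

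Cyp27a1 (chr1:74713574-74737892, plus strand) encodes the mitochondrial hydroxylase of the sterol side chain that opens the alternative pathway. HFD libraries ran from 272 to 551 CPM with a median of 344, and RD libraries from 332 to 462 CPM with a median of 434. At 2 weeks HFD females had 272, 318 and 399 CPM, against 438, 462 and 449 CPM in RD females, with no overlap. That difference was -0.45 (95% interval -0.82 to -0.08), with an unadjusted p of 0.019 and an adjusted p of 0.40. The sex difference, female over male, averaged -0.20 (-0.38 to -0.01, adjusted p = 0.083). It was called without HFD male 4 at 12 weeks (-0.26, adjusted p = 0.014), HFD male 13 at 2 weeks (-0.23, adjusted p = 0.034) or HFD female 5 at 2 weeks (-0.24, adjusted p = 0.03). HFD male 4 had 320 CPM, against 551 and 483 CPM in its replicates, and without it the difference on HFD at 12 weeks was also called (-0.67, adjusted p = 0.013).

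Cyp7b1 (chr3:18071950-18243338, minus strand) encodes the oxysterol hydroxylase of the alternative pathway and carried the greatest sex difference of the 10 genes. A small nuclear RNA gene, Gm23686, overlaps it on the same strand. The 12 females ran from 13.2 to 23.1 CPM with a median of 16, and the 12 males from 120 to 798 CPM with a median of 402. The sexes did not overlap. The mean difference was -4.46 on the log2 scale (SE 0.19, 95% interval -4.85 to -4.08, adjusted p = 1.9e-13), so the level was 22.1-fold lower in females. It was called in each of the 4 comparisons, at -4.24 on HFD and -4.10 on RD at 12 weeks, and -5.30 on HFD and -4.21 on RD at 2 weeks.

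Cyp7b1 also differed among males. At 12 weeks HFD males had 120, 205 and 444 CPM, against 218, 274 and 396 CPM in RD males. At 2 weeks HFD males had 482, 552 and 798 CPM, against 408, 492 and 334 CPM in RD males. Diet groups overlapped at both times, and neither diet difference was called (-0.21 at 12 weeks, 95% interval -0.88 to 0.46, and 0.57 at 2 weeks, -0.10 to 1.24). Between times HFD males did not overlap, and the level was lower at 12 weeks by -1.25 (SE 0.33, adjusted p = 0.012). That call was lost without HFD male 3 at 12 weeks (-1.12, adjusted p = 0.064) or HFD male 14 at 2 weeks (-1.01, adjusted p = 0.06), and without HFD male 4, at 444 CPM, the difference was -1.95. The sex by diet interaction at 2 weeks was -1.09 (95% interval -2.05 to -0.13, unadjusted p = 0.028, adjusted p = 0.46).

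None of the 10 genes was called in a sex by diet interaction, at 12 weeks (0.0% of all genes) or at 2 weeks (0.0%). At an unadjusted p under 0.05 there were 0 members at 12 weeks (6.94% of all genes) and 2 at 2 weeks (Cyp7b1 and Nr1h4, 9.5%), and DESeq2 called 0 at both.

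Slc27a5 (chr7:12988346-12998192, minus strand) encodes the ligase that activates bile acids with coenzyme A before conjugation. By the median over the 24 libraries it was the most abundant member per length. It was also one of the steadiest, with 553 to 854 CPM. Females ran from 633 to 854 CPM with a median of 729, and males from 553 to 797 CPM with a median of 657. The mean sex difference was 0.14 (95% interval -0.01 to 0.28) and the mean diet difference -0.07 (-0.21 to 0.08), neither called.

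Baat (chr4:49489422-49506557, minus strand) encodes the transferase that couples activated bile acids to taurine or glycine. Females ran from 156 to 227 CPM with a median of 183, and males from 188 to 278 CPM with a median of 239. The mean difference was -0.36 (SE 0.07, adjusted p = 0.00023), so the level was 1.29-fold lower in females. On HFD at 2 weeks the females, at 165, 164 and 156 CPM, all lay below the males, at 256, 188 and 245 CPM. This difference of -0.51 was called (adjusted p = 0.016), but not without male 12 (-0.44, adjusted p = 0.07) or male 14 (-0.46, adjusted p = 0.067). On HFD at 12 weeks it was -0.41 (adjusted p = 0.04), and leaving out any of 5 of the 6 libraries ended the call. These were females 3, 6 and 7 and males 2 and 4, with adjusted p of 0.12, 0.052, 0.12, 0.074 and 0.29 in that order. The diet differences ran from -0.24 to -0.04 for Baat and from -0.17 to 0.07 for Slc27a5, none called.

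Slc10a1 (chr12:80953183-80968705, minus strand) encodes NTCP, the carrier that takes conjugated bile acids up from portal blood. Females ran from 351 to 594 CPM with a median of 540, and males from 239 to 482 CPM with a median of 348. HFD female 5 at 2 weeks, at 351 CPM, was the lowest female, and the other 11 ran from 443 CPM upward. The mean difference was 0.56 (SE 0.09, adjusted p = 5.5e-05), 1.47-fold higher in females. At 2 weeks it was called on HFD (0.73, adjusted p = 0.0095) and on RD (0.81, adjusted p = 0.006). Without male 13 the HFD difference was 0.60 (adjusted p = 0.053). At 12 weeks it was 0.18 (95% interval -0.19 to 0.55) on HFD and 0.51 (0.14 to 0.87, adjusted p = 0.079) on RD, uncalled, though the RD difference was called on the 2 groups alone (adjusted p = 0.043) and by DESeq2. The rise among HFD males between the times, to 480, 482 and 353 CPM at 12 weeks against 309, 239 and 339 CPM at 2 weeks, was 0.57 (SE 0.18, adjusted p = 0.031). That call ended without male 2 (0.45, adjusted p = 0.13) or male 3 (0.49, adjusted p = 0.12) of 12 weeks, and without male 12 (0.57, adjusted p = 0.068) or male 13 (0.43, adjusted p = 0.15) of 2 weeks.

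Abcb11 (chr2:69238282-69342616, minus strand) encodes the bile salt export pump of the canalicular membrane. An antisense gene, Gm13613, and a pseudogene, Gm13614, overlap it on the other strand. The library kit is stranded, but the sources used here do not say how strand entered the counting. Females ran from 548 to 993 CPM with a median of 753, and males from 381 to 766 CPM with a median of 606. The mean difference was 0.40 (SE 0.10, adjusted p = 0.0024), 1.32-fold higher in females. It was called singly on HFD at 2 weeks (0.62, adjusted p = 0.036). There the females had 615, 548 and 993 CPM, against 479, 381 and 539 CPM in males, with no overlap. That call ended without female 5 (0.32, adjusted p = 0.22), male 12 (0.63, adjusted p = 0.091) or male 13 (0.50, adjusted p = 0.14).

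Abcb11 had the smallest adjusted p of the 10 for the mean effect of diet. In males the diets did not overlap at either time. At 12 weeks HFD males had 579, 471 and 535 CPM, against 633, 694 and 669 CPM in RD males. At 2 weeks HFD males had 479, 381 and 539 CPM, against 698, 766 and 642 CPM in RD males. The differences were -0.33 (95% interval -0.73 to 0.06) at 12 weeks and -0.59 (-0.99 to -0.19, unadjusted p = 0.0056, adjusted p = 0.21) at 2 weeks, so neither was called. In females, where the diets overlapped, they were -0.26 (-0.66 to 0.13) at 12 weeks and -0.12 (-0.51 to 0.28) at 2 weeks. The mean over both sexes and times was -0.33 (-0.52 to -0.13, unadjusted p = 0.0026, adjusted p = 0.092). DESeq2 called it (adjusted p = 0.034), as did edgeR without HFD female 5 at 2 weeks (-0.40, adjusted p = 0.011), the library with 993 CPM.

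**Figure D4:**
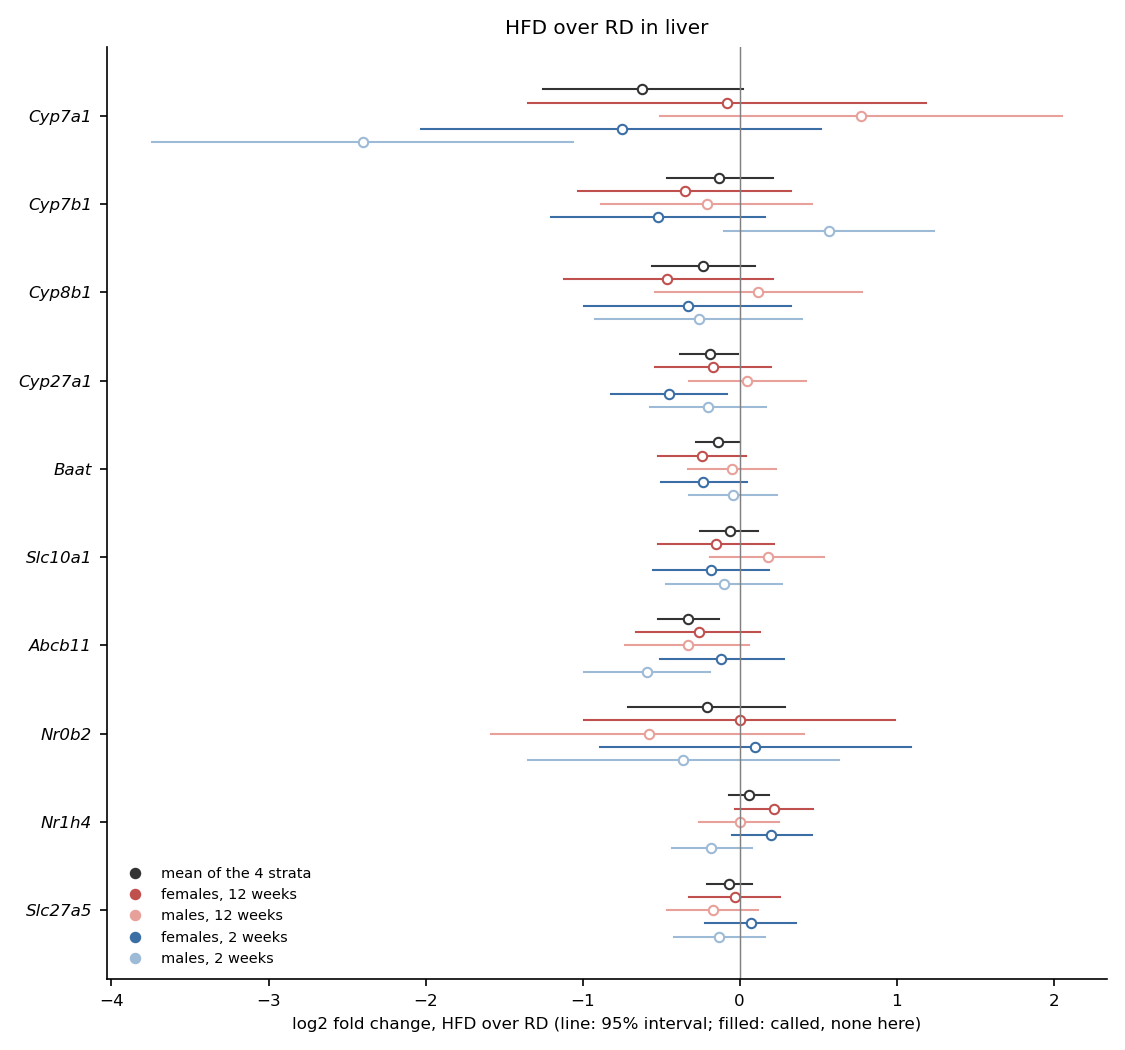
Log2 fold change, HFD over RD, of each gene (x axis) for the mean of the 4 combinations and for each sex and time. Lines are 95% intervals, and open points are not called (n = 3 libraries a group). All points are open, and Cyp7a1 in males at 2 weeks lies lowest, at -2.40.

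RefSeq promoter windows on the GRCm38.p6 build, from 250 bases before to 50 after a start site, were at hand for Cyp8b1, Slc10a1, Abcb11, Cyp27a1, Nr1h4 and Nr0b2. The windows of 3 genes called between the sexes are shown 5' to 3' on the gene's strand, since they let the motifs known for FXR and for growth hormone signalling be read beside the values. Capitals mark matches to the nuclear receptor hexamer AGGTCA, to the STAT motif TTCNNNGAA, or to an inverted repeat of the hexamer around 1 base with at most 2 mismatches, the arrangement FXR is known to bind. All were searched on both strands, as was the LRH-1 motif CAAGGTCA, which holds the hexamer, is in 1.56% of windows and had no match here.
Abcb11 (chr2:69342567-69342866, minus strand): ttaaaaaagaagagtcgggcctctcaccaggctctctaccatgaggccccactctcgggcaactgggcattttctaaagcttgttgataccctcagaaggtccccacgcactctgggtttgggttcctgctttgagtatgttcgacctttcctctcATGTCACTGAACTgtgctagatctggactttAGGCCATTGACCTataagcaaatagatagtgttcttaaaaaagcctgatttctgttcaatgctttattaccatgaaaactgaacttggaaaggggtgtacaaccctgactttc
Slc10a1 (chr12:80968656-80968955, minus strand): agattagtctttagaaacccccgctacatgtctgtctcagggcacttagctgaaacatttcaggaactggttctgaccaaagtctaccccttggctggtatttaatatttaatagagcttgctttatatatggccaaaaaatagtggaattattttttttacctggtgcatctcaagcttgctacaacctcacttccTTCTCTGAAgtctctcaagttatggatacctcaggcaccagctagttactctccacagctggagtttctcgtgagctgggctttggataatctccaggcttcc
Cyp8b1 (chr9:121916256-121916555, minus strand): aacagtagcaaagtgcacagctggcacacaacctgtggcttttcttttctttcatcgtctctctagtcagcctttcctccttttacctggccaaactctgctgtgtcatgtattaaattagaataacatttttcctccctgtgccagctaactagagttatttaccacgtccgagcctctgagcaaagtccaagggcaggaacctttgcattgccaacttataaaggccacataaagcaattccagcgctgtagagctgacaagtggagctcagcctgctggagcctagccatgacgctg
The Abcb11 window held an inverted repeat with 1 mismatch that begins 63 bases before the start site, and another with 2 mismatches that begins 94 bases before it. The hexamer 56 bases before the start lies inside the first. Such a repeat with at most 1 mismatch is in 0.0822% of 32851 promoter windows, and with at most 2 mismatches in 1.14%. The Slc10a1 window held a STAT motif 53 bases before the start site, as 8.3% of windows do, the window of a second Slc10a1 start held a hexamer 87 bases before it, and the Cyp8b1 window held none of the motifs. Of the windows not shown, that of Nr0b2 held a STAT motif 91 bases before its start, and that of Cyp27a1 held none. The Nr1h4 window (chr10:89506609-89506908, minus strand) belongs to a start inside the span of the gene. It held a hexamer (in 16.3% of windows) 214 bases before that start. A match is a match of letters, and binding was not measured.

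Nr1h4 (chr10:89454234-89533585, minus strand) encodes FXR. Its level moved little, with 85.6 to 112 CPM in females (median 98.2) and 85.3 to 132 CPM in males (median 116). The mean difference was -0.19 (SE 0.06, 95% interval -0.32 to -0.07, adjusted p = 0.016), 1.14-fold lower in females. On RD at 12 weeks the females had 89.1, 94.4 and 85.6 CPM, against 108, 118 and 124 CPM in males. On RD at 2 weeks they had 89.6, 89.7 and 99.3 CPM, against 116, 117 and 113 CPM in males. In both the sexes did not overlap, and the differences were -0.37 (adjusted p = 0.061) at 12 weeks and -0.31 (adjusted p = 0.11) at 2 weeks, uncalled. At 12 weeks Nr1h4 was called by DESeq2 (adjusted p = 0.015), with median-of-ratios size factors (0.048) and on the 2 groups alone (0.042), and at 2 weeks by DESeq2 (0.048) and on the 2 groups alone (0.029). On HFD the sexes overlapped, with -0.15 at 12 weeks and 0.07 at 2 weeks. The sex by diet interaction was 0.22 (95% interval -0.14 to 0.58) at 12 weeks and 0.38 (0.02 to 0.74, unadjusted p = 0.039, adjusted p = 0.50) at 2 weeks.

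Nr0b2 (chr4:133553376-133556536, plus strand) encodes SHP, the repressor that FXR induces. At 12 weeks it stood at 31.1, 27.6 and 15.3 CPM in HFD females and 21.4, 26.3 and 5.11 CPM in HFD males, against 28, 24.4 and 21.6 CPM in RD females and 12.4, 40.7 and 26.2 CPM in RD males. At 2 weeks it stood at 28.6, 59.3 and 41.5 CPM in HFD females and 29.4, 26.6 and 26.3 CPM in HFD males, against 53.7, 37.3 and 29.5 CPM in RD females and 22.8, 47.7 and 35.3 CPM in RD males. All diet groups overlapped, and the lowest library was HFD male 4 at 12 weeks. The mean diet difference was -0.21 (95% interval -0.71 to 0.29) and the mean sex difference 0.31 (-0.19 to 0.80), neither called. In HFD males at 2 weeks, where Cyp7a1 was lowest, the Nr0b2 libraries all lay within the range of the RD males. The HFD over RD difference of Nr0b2 there was -0.36 (95% interval -1.35 to 0.63). A link between the Nr0b2 and Cyp7a1 levels was not tested.

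In the sex comparisons where members were called, other gene lists moved as well. On HFD at 2 weeks, where 12.4% of all genes were called, 16 of 20 acute phase genes were lower in females. They summed to 24800 to 30200 CPM in females and 44000 to 124000 CPM in males. On HFD at 12 weeks, where 17.3% of all genes were called, 12 of 14 macrophage markers were higher in females. These summed to 801 to 956 CPM in females and 223 to 377 CPM in males. For the mean, where 39.2% of all genes were called, 13 of 14 macrophage, 9 of 10 lymphoid, 7 of 10 endothelial and 7 of 11 stellate cell markers were higher in females and none of these lists had a lower one. Of 11 hepatocyte markers 2 were higher and 5 lower. Of 9 tested bile duct cell markers 1 was higher and 2 lower, summing to 124 to 172 CPM in females and 128 to 533 CPM in males. The male sums of 533 CPM (HFD male 4 at 12 weeks) and 439 CPM (HFD male 13 at 2 weeks) stood alone, and the other 10 males reached at most 233 CPM. The marker counts differed by time. At 2 weeks 0 of 14 macrophage markers were called on either diet. Of 10 endothelial markers 0 were called on RD at that time, and on HFD 0 were higher and 1 lower. At 12 weeks 12 macrophage and 7 endothelial markers were higher on HFD, and 5 and 1 on RD (8.81% of all genes called). Lymphoid and stellate cell markers had some higher at 2 weeks, 2 and 1 on HFD, and 5 and 2 on RD (9.81%). The part of these gene lists in the sex differences was not tested.

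Other bile acid genes were also called between the sexes, where the counts for the mean stand beside 39.2% of all genes called. Among 15 tested enzymes of synthesis beyond the 10 genes, 3 were higher and 5 lower in females for the mean, with a median log2 fold change of -0.04. Scp2, a peroxisomal carrier and thiolase of side chain shortening, was lower by -0.81 (adjusted p = 1.5e-08). Akr1d1, the reductase that gives bile acids their bent ring junction, was higher by 1.04 (adjusted p = 6.9e-07). Cyp39a1, an oxysterol hydroxylase, was higher by 2.11 (adjusted p = 1.1e-05), at 3.33 to 8.26 CPM in females and 0.158 to 3.58 CPM in males. Cyp2c70, which makes muricholic acids in the mouse, was called on HFD at 2 weeks alone of the sex comparisons (-1.04, adjusted p = 0.023), and it was lower in HFD males at 12 over 2 weeks (-1.19, adjusted p = 0.0086). None of the 15 was called for diet by edgeR in the 4 comparisons or their mean (0.00629% to 1.34% of all genes). At an unadjusted p under 0.05 there were 6 in females and 1 in males at 2 weeks (10% and 10.6% of all genes). At 12 weeks there were 2 and 1 (4.32% and 13.1%), and for the mean 5 (14.4%).

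Among 16 other transporters, 8 were higher and 4 lower in females for the mean, with a median of 0.21. Slco1a1, an organic anion uptake carrier, had 4.19 to 184 CPM in females and 326 to 834 CPM in males, a difference of -3.61 (adjusted p = 6.9e-07). Its relative Slco1a4 was higher in females by 2.94 (adjusted p = 7.1e-09). The canalicular pump Abcg2 was lower in females by -1.69 (adjusted p = 5.9e-14). Slc51b, a subunit of the basolateral bile acid exporter, was higher in females by 1.67 (adjusted p = 0.0002), while the phospholipid pump Abcb4 differed by 0.11 (adjusted p = 0.39). None of the 16 was called for diet by edgeR in the 4 comparisons or their mean (0.00629% to 1.34% of all genes). At an unadjusted p under 0.05 there were 2 in females and 6 in males at 2 weeks (10% and 10.6% of all genes). At 12 weeks there were 1 and 1 (4.32% and 13.1%), and for the mean 2 (14.4%).

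Of 9 genes of sulfation, glucuronidation and other detoxification of bile acids, 7 were higher and 2 lower in females for the mean. Sult2a1, a bile acid sulfotransferase, had 30 to 283 CPM in females and 0.0143 to 0.216 CPM in males. Sult2a1 and Cyp3a11 have near-identical relatives in the mouse, so the split of reads among them is uncertain. In females at 2 weeks Sult2a1 was also lower on HFD, with 55.7, 30 and 87.1 CPM, against 283, 135 and 184 CPM on RD (-1.80, adjusted p = 0.015). Cyp3a11, which hydroxylates bile acids, was lower on HFD in males at both times. It had 569, 374 and 301 CPM in HFD males and 2690, 2660 and 1880 CPM in RD males at 12 weeks (-2.54, adjusted p = 0.0006), and 527, 179 and 607 CPM in HFD males and 1620, 1660 and 1220 CPM in RD males at 2 weeks (-1.78, adjusted p = 0.012). The diets did not overlap in these 3 comparisons.

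Of 24 tested regulators none was called for diet by edgeR in the 4 comparisons or their mean (0.00629% to 1.34% of all genes). At an unadjusted p under 0.05 there were 4 in females and 2 in males at 2 weeks (10% and 10.6% of all genes). At 12 weeks there were 0 and 1 (4.32% and 13.1%), and for the mean 2 (14.4%). Between the sexes 8 of the 24 were higher and 4 lower in females for the mean, with a median of 0.11. Nr1i3, the receptor CAR, was higher in females by 1.31 (adjusted p = 6.1e-07), and the coactivator Ppargc1a by 1.17 (adjusted p = 5.9e-07). Hnf4a, a hepatocyte nuclear receptor that drives synthesis genes, was lower by -0.29 (adjusted p = 0.028). Nr5a2, or LRH-1, which SHP represses, differed by 0.04 (adjusted p = 0.73). The receptor for the gut hormone FGF15 is FGFR4 with its partner beta-klotho. Fgfr4 differed by -0.09 (adjusted p = 0.46) and Klb was higher by 0.33 (adjusted p = 0.036). Among 21 cholesterol synthesis genes, whose pathway makes the substrate, 10 were lower on HFD in females at 2 weeks (0.252% of all genes called). Nsdhl was among them (-1.74, adjusted p = 0.00021). For the mean of diet 4 of the 21 were lower (1.34%). By edgeR 0 were called for diet in females at 12 weeks, in males at either time, or in either sex by diet interaction. At an unadjusted p under 0.05 there were 13 in females at 12 weeks (4.32% of all genes). In males there were 4 at 12 weeks (13.1%) and 4 at 2 weeks (10.6%). In the interaction there were 14 at 12 weeks (6.94%) and 18 at 2 weeks (9.5%). On HFD 11 of the 21 were lower in females than in males at 2 weeks (12.4% called) and 10 at 12 weeks (17.3%). On RD 2 were higher in females at 2 weeks (9.81%).

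As a description, the genes whose log2 CPM followed each member most closely over the 24 libraries were ranked by Pearson's r among 10282 genes. The libraries share the sexes, diets and cohorts, so a common sex difference alone gives a high r. Cyp7b1 was nearest to C6, a complement gene, and to Mup14 and Mup7 (r = 0.99 each), which are urinary protein genes with near-identical copies, so their counts are uncertain. Slc10a1 was nearest to Akr1d1 (r = 0.94), a bile acid enzyme, and to Bbox1 and Papss2 (r = 0.92 each). Papss2 makes the sulfate donor. Cyp7a1 was nearest to Me1 (r = 0.85) and Galm (r = 0.84), and Abcb11 to Gsta4 (r = 0.89). For Nr1h4 the highest r was 0.75, with Mmp15, the lowest such value of the 10 genes.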

How the data were processed

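Stranded polyA RNA libraries from 200 ng of liver RNA were analysed in 24 libraries, grouped by diet, weeks and sex from the sample labels. The authors deposited one table of expected counts per gene symbol. Per the submitters' processing notes kallisto, edgeR, DESeq2 and GRCm38 were used, without roles, and the sources used here do not say how transcripts were added up into genes. Reads shared by near-identical genes cannot be reassigned.

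Expected counts were rounded and fitted with edgeR 4.0.16 in R 4.3.3 (filterByExpr, TMM, glmQLFit with robust = TRUE) over all 8 liver groups, which left 15897 genes. Benjamini-Hochberg adjustment ran over all genes of each of 18 contrasts, with calls at 0.05. The SE is the absolute log2 fold change over the root of the F value, and 95% intervals use the t distribution at the fit's degrees of freedom. CPM are TMM-scaled, and log2 CPM used a prior count of 2. Positions and exon lengths come from GENCODE M21, and promoters from RefSeq. The fit was tested on simulated data.

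The 10 genes and the other lists were chosen with earlier results of these data known. All 10 are named, and from other lists up to 4 called genes by smallest p in the diet, sex and interaction contrasts, plus Nr5a2, Hnf4a, Fgfr4, Klb, Abcb4, Slc51b and Cyp2c70. Slco1a4, Slco1a1 and the other named genes follow this rule. Likeness names up to 3 genes with the highest r. Of 225 other list symbols 224 were found, 3 by an older symbol. Alternatives were DESeq2 1.42.0, median-of-ratios size factors, no filter, robust = FALSE, the compared groups alone, a replicate block, and each library left out.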

Additional observations from a re-analysis of the deposited data

Results flagged for a closer look

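The 24 visceral white adipose libraries of the series enter no comparison above, yet 8 of the 10 genes had more than 3 counts in all 24 of them. They are given here as signal outside the liver measurements. Cyp27a1 was the most abundant, with a median of 50.8 CPM in adipose tissue and a range of 38.2 to 91.9 CPM, against a median of 394 CPM in liver. The adipose medians of the other synthesis genes were 1.99 CPM for Cyp7b1 and 0.923 CPM for Cyp8b1. The conjugating enzymes had 0.859 CPM for Slc27a5 and 0.316 CPM for Baat. The transporters had 1.42 CPM for Abcb11 and 0.568 CPM for Slc10a1, and the receptor Nr1h4 had 1.83 CPM. The range was 0.0663 to 8.12 CPM for Abcb11, 0.125 to 7.69 CPM for Slc27a5 and 0.0857 to 3.94 CPM for Slc10a1. The same library of HFD females at 12 weeks held these maxima. Its replicates had 0.199 and 2.15 CPM of Abcb11, 0.478 and 2.25 CPM of Slc27a5, and 0.0857 and 1.42 CPM of Slc10a1. Cyp27a1 was not raised there, at 45.5 CPM against 50.7 and 65.5 CPM. Whether the Abcb11, Slc27a5 and Slc10a1 signal came from adipose cells was not tested. Cyp7a1 was above 3 counts in 14 and Nr0b2 in 10 of the 24 adipose libraries. Adipose CPM were scaled to library totals without TMM, separately from liver, so these levels are set side by side only.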

How the results depend on the processing

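The direction of change was followed for 39 values of a gene in a comparison. These had an unadjusted p under 0.05 with edgeR's quasi-likelihood test, or were called in the main fit or under an alternative. None of them reversed under an alternative, and the values outside these 39 were not followed. Of 619 pairs of a gene's value and an alternative, 563 stayed on the same side of the threshold, 34 lost a call and 22 gained one. The number of the 10 genes called changed in 36 of 259 pairs of a comparison and an alternative, in 20 of them by over 1.5 times. DESeq2 called 1 for diet in males at 2 weeks, 1 for the mean of diet, 1 for the difference of diet effects between times in males, 4 for sex on RD at 2 weeks, 3 for sex on RD at 12 weeks, 6 for sex on HFD at 2 weeks, 4 for sex on HFD at 12 weeks and 7 for the mean of sex. Without the filter on low counts the numbers were 4 for sex on HFD at 2 weeks, 2 for sex on HFD at 12 weeks and 7 for the mean of sex. Median-of-ratios size factors called 2 for sex on RD at 12 weeks. Fitting the compared groups alone called 1 for sex on HFD at 12 weeks and 1 at 2 weeks, 3 for sex on RD at 12 weeks and 4 at 2 weeks, and 0 for HFD males at 12 over 2 weeks. With 1 library left out, the counts ran from 2 to 5 for sex on HFD at 2 weeks, from 1 to 3 for sex on HFD at 12 weeks, from 1 to 3 for HFD males at 12 over 2 weeks, from 0 to 1 for the difference of diet effects in males, from 0 to 1 for the mean of diet and from 6 to 7 for the mean of sex. The cause of these shifts was not tested, and with 3 libraries a group the intervals above set what could be seen.

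Some groups share replicate numbers, 2 of them in females at 2 weeks and 3 in males at 12 weeks. These are too few to tell whether the number pairs the libraries. The correlations of centred log2 CPM between same-numbered libraries were -1.52e-05 and -0.0488 in females at 2 weeks and -0.112, 0.0505 and 0.127 in males at 12 weeks, between the diets. With the number as a block, 0 members were called in both comparisons, and 0 without it in the same libraries, an alternative for the females chosen after seeing the data.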
